A study of Homo sapiens with 6 samples.

Results

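The transcription factor MYC and 41 nucleolar proteins that make ribosomes were followed at the RNA level in melanoma cells that had become resistant to a BRAF inhibitor. These 42 genes were listed by name (MYC and factors of rRNA transcription, rRNA processing and ribosome assembly), with no threshold on a measured value. The list was, however, chosen with earlier results of these data known. All 42 were found among the 60617 gene IDs used and passed the filter that left 16560 genes for testing. The 6 RNA-seq libraries came from 3 groups. PBRT16 and PBRT15 cells, lines of 1205LuTR origin from paradox breaker resistant tumors #16 and #15 grown in vivo, were kept in 500 nM PLX8394, a BRAF inhibitor of the paradox breaker type (2 libraries each), and the 1205LuTR parental cells, labelled sensitive, were given DMSO (2 libraries). 1205Lu is a human melanoma line with the *BRAF* V600E mutation, and 1205LuTR cells carry a GAL4-ELK1 reporter of ERK signaling.

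Only the resistant lines received PLX8394 and only the parental cells DMSO, so in a difference from the parental cells the line and the drug cannot be told apart. Both comparisons with the parental cells also use the same 2 parental libraries, so they are not independent of each other. Nothing in the sources says that the 2 libraries of a group are separate cultures. P-values therefore cover only the spread between these samples, and that spread may be technical. In bulk RNA, fewer cells that express a gene and less of its RNA per cell cannot be told apart.

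Ribosomes are built in the nucleolus. RNA polymerase I transcribes a long rRNA precursor there, small nucleolar ribonucleoproteins (snoRNPs) modify it, and large sets of assembly factors fold and cut it into the rRNAs of the small and the large subunit. MYC, bound to DNA with its partner MAX at E-box sequences, is known to drive many of the genes for these steps, which makes the pathway a common readout of MYC activity and of growth.

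The labels were checked with SOX10, a transcription factor of the melanocyte lineage, which was at 1.49 and 0.778 signal units in PBRT16 cells, at 0 and 0.791 in PBRT15 cells and at 4360 and 4103 in parental cells. The summed signal of 10 melanoma markers was 6619 and 6126 in PBRT16 cells and 5508 and 5446 in PBRT15 cells, against 37020 and 33412 in parental cells. Of the 8 that could be tested, 4 fell and 1 (MITF) rose in each resistant line, and TYR was at 0 in all 6 libraries. Signal here is the normalized value per gene that the authors deposited, and libraries summed to 2.79e+07 to 2.96e+07 units, for an estimated 2.62e+07 to 3.11e+07 reads. The summed signal of 6 fibroblast markers was 3388 and 4410 in PBRT16 cells, 72633 and 76110 in PBRT15 cells and 6769 and 5719 in parental cells. In PBRT15 cells it came mostly from COL1A2 and THY1. The summed signal of 5 immune markers was 2147 and 3123 in PBRT16 cells and 2722 and 2200 in PBRT15 cells, against 819 and 1262 in parental cells. Nearly all of it was CD68, a lysosomal protein used as a macrophage marker and the only one that could be tested, which rose by 1.35 in PBRT16 cells and by 1.27 in PBRT15 cells on the log2 scale. PTPRC, which defines leukocytes, was at 2.72 or less and CD3E, which defines T cells, at 0 in all 6 libraries. The part of the fibroblast and immune marker genes in the results below was not tested.

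The 42 genes together made up 0.498 and 0.462% of the signal in PBRT16 cells and 0.508 and 0.425% in PBRT15 cells, against 0.687 and 0.734% in parental cells. Every library of the resistant lines lay below both parental libraries. Nucleolin (NCL) and nucleophosmin (NPM1), abundant proteins of the nucleolus, held 44.3 to 47.7% of this sum in each library. Without them the sum was 73464 and 72639 in PBRT16 cells and 83475 and 67859 in PBRT15 cells, against 104032 and 110135 in parental cells. Each resistant library thus stayed below both parental ones without the most abundant members, while the PBRT16 and PBRT15 sums overlapped.

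Of the 42 genes, 20 fell and 1 rose in PBRT16 cells against parental cells at an adjusted p of at most 0.05 (limma, Benjamini-Hochberg over all genes), where the shares over all tested genes were 19% lower and 21.1% higher. In PBRT15 cells 20 fell and 0 rose, with 19.5% lower and 21.6% higher over all tested genes. At an unadjusted p of at most 0.05, 1 gene (NHP2) was higher in PBRT15 cells. The median log2 fold change of the 42 genes was -0.54 in PBRT16 cells (all tested genes -0.0019) and -0.55 in PBRT15 cells (all tested genes -0.0053), which is 0.689-fold and 0.681-fold. The falls were of moderate size. Only 4 of the genes in PBRT16 cells and 3 in PBRT15 cells were at least 2-fold lower, where 9.95% and 9.85% of all tested genes were.

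Both PBRT16 libraries lay below both parental libraries for 35 of the 42 genes (38.4% of all tested genes), and both PBRT15 libraries did so for 30 (37.9%). The count of falls depended on single libraries. It was 4 without parental replicate 1, 5 without parental replicate 2, 6 without PBRT16 replicate 1 and 3 without PBRT16 replicate 2 in PBRT16 cells. In PBRT15 cells it was 2 without parental replicate 1, 3 without parental replicate 2, 4 without PBRT15 replicate 2, and 10 without either PBRT16 replicate. Each of these fits has fewer libraries to estimate the spread, and the median log2 fold change of the 42 genes stayed between -0.60 and -0.48 in PBRT16 cells and between -0.65 and -0.40 in PBRT15 cells whichever library was left out. Of the genes called, 3 of 21 in PBRT16 cells (POLR1B, UTP20 and HEATR1) and 2 of 20 in PBRT15 cells (POLR1B and GNL3) were called in all 17 alternative fits.

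**Figure D1:**
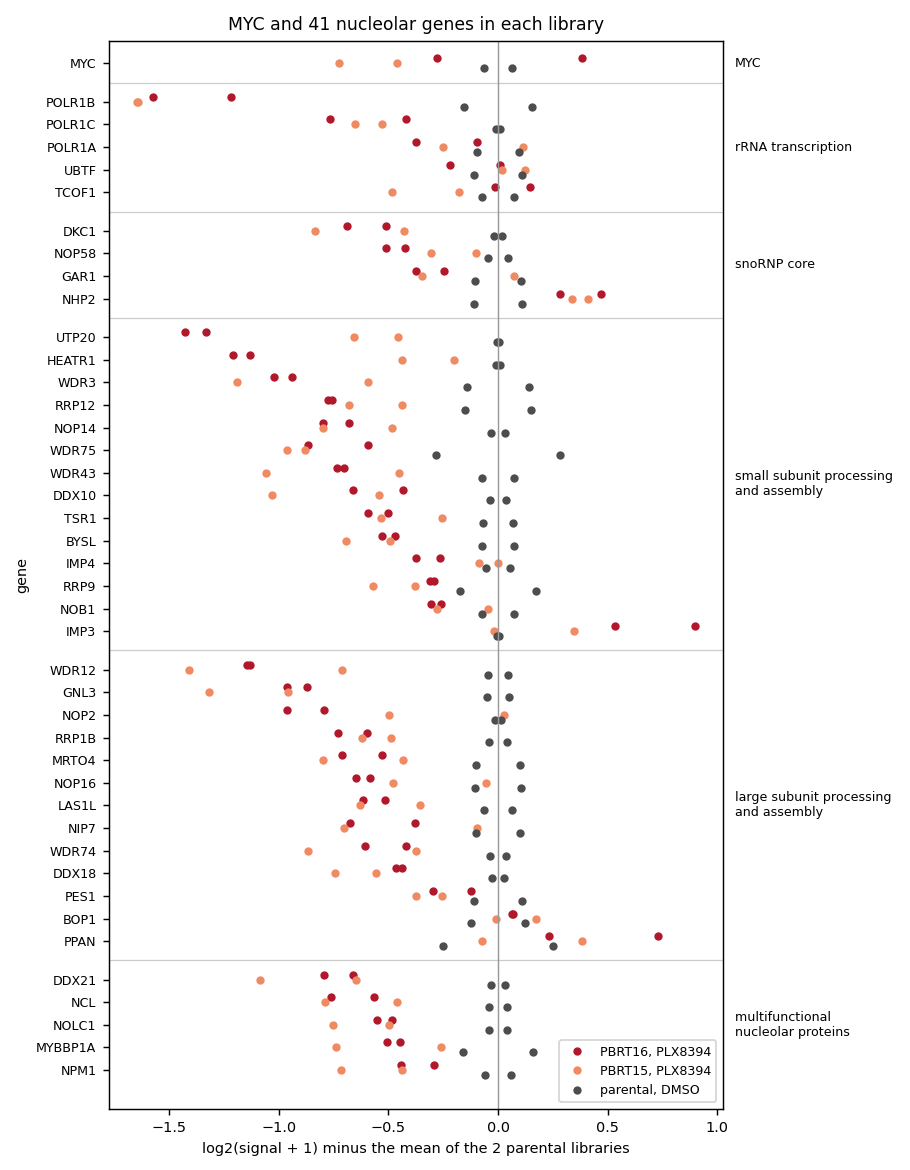
Each of the 42 genes in each of the 6 libraries, as log2(signal + 1) minus the mean of the 2 parental libraries, with genes grouped by role. PBRT16 and PBRT15 points lie left of the parental points for most genes, POLR1B farthest left, with IMP3, NHP2, PPAN and BOP1 among the exceptions.

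Promoters were read for the letters CACGTG, the canonical E-box of MYC and MAX and its own reverse complement, to set sequence beside the RNA values. RefSeq windows (GRCh38.p14) from 250 bases before to 50 bases after the start were matched for 34 of the 42 genes; not matched were BOP1, DDX18, MYC, NOLC1, NOP58, RRP12, RRP1B and TCOF1. CACGTG stood in 10 of the 34 windows (29.4%), against 7.26% of all 35116 windows and 9.94% of those of tested genes. The noncanonical letters CACGCG or CGCGTG stood in 11 (32.4%), against 11.4% of all windows and 18.1% of those of tested genes. The 7 genes that hold a whole CACGTG within 100 bases before and 30 bases from the start are shown with these letters in capitals, together with POLR1B, the gene with the lowest fold change, which has none in its whole window:
UTP20: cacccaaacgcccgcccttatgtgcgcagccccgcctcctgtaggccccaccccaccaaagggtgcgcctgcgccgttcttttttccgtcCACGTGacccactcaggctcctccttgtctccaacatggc
NOP14: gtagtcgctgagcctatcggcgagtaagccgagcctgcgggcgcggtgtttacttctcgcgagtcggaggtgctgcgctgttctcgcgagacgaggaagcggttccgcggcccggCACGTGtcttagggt
MRTO4: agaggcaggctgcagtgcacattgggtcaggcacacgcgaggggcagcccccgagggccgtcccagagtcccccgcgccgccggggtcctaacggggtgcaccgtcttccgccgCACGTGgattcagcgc
IMP4: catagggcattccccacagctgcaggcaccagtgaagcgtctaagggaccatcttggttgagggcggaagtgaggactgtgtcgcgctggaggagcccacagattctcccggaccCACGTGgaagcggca
PES1: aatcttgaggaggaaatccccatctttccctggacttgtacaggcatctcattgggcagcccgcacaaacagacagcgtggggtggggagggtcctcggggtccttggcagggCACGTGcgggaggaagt
RRP9: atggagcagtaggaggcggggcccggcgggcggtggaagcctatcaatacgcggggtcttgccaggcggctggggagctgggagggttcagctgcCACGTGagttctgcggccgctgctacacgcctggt
WDR43: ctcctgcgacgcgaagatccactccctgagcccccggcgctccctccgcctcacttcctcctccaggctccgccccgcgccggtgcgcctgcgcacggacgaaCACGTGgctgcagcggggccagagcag
POLR1B: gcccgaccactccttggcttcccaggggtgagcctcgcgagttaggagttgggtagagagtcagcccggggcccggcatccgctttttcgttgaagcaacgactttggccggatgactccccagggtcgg

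These stretches lie at chr12:101280005-101280134, plus strand (UTP20), chr4:2963377-2963506, minus strand (NOP14), chr1:19251705-19251834, plus strand (MRTO4), chr2:130342797-130342926, plus strand (IMP4). The others lie at chr22:30591881-30592010, minus strand (PES1), chr3:51941875-51942004, minus strand (RRP9), chr2:28894567-28894696, plus strand (WDR43), chr2:112541936-112542065, plus strand (POLR1B). The letters begin 10 bases before the start in UTP20 and 5 before it in RRP9, and 3 to 15 bases after it in the other genes shown. UTP20, NOP14 and MRTO4 were called lower in each line, while IMP4, PES1, RRP9 and WDR43 were not called in either. WDR43 came close, with log2 fold changes of -0.72 in PBRT16 cells (adjusted p = 0.0587, limma) and -0.75 in PBRT15 cells (adjusted p = 0.0509, limma). Those of IMP4, PES1 and RRP9 ran from -0.32 to -0.21 in PBRT16 cells and from -0.47 to -0.04 in PBRT15 cells. Of the 19 matched genes called lower in at least 1 line, 5 held CACGTG, and of the 15 called lower in neither, 5 did. The median log2 fold change of the 10 genes with CACGTG was -0.56 in PBRT16 cells and -0.53 in PBRT15 cells, and that of the 24 without it was -0.56 in PBRT16 cells and -0.53 in PBRT15 cells. A match of letters describes the window and does not show binding.

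MYC itself did not pass the test in any comparison. Its signal was 1522 and 2410 in PBRT16 cells and 1118 and 1344 in PBRT15 cells, against 1766 and 1934 in parental cells. The PBRT16 libraries lay on either side of the parental ones, and both PBRT15 libraries were below them. The log2 fold change was 0.05 in PBRT16 cells (95% interval -0.61 to 0.71, adjusted p = 0.886) and -0.59 in PBRT15 cells (-1.25 to 0.07, adjusted p = 0.125). Between PBRT16 and PBRT15 cells it was 0.64 (-0.02 to 1.30, adjusted p = 0.159). The PBRT15 value was close to the median of the 42 genes in that line (-0.55). The PBRT16 interval also held the median of the 42 genes in its line (-0.54). A fall of that size was therefore not excluded in either line. MYC was not called in any of the 17 alternative fits in either line (adjusted p 0.219 to 0.98 in PBRT16 cells and 0.0501 to 0.338 in PBRT15 cells). The gene lies at chr8:127735434-127742951 (GRCh38, GENCODE v44).

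RNA polymerase I and its cofactors came next. POLR1B, a core catalytic subunit of the polymerase (chr2:112541915-112579818, plus strand), had the lowest fold change of all 42 genes in both lines. Its signal was 746 and 957 in PBRT16 cells and 710 and 711 in PBRT15 cells, against 1999 and 2475 in parental cells. All resistant libraries were at less than 0.5 times the lower parental value, and the log2 fold change was -1.40 in PBRT16 cells (SE 0.18, adjusted p = 0.00499) and -1.65 in PBRT15 cells (SE 0.18, adjusted p = 0.00307). It was called in all 17 alternative fits in both lines. POLR1C, a subunit shared with RNA polymerase III, fell by 0.59 on the log2 scale in both lines. POLR1A, the largest subunit, UBTF, which binds the rDNA promoter, and TCOF1, the cofactor treacle, were not called in either line. Their log2 fold changes ran from -0.23 to 0.07 in PBRT16 cells and from -0.33 to 0.07 in PBRT15 cells. TCOF1 was at 3152 and 2826 in PBRT16 cells and at 2519 and 2038 in PBRT15 cells, against 2714 and 2999 in parental cells, with only the PBRT15 libraries apart from the parental ones.

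Of 16 other subunits and initiation factors of RNA polymerase I, 5 fell (31.2%) and 3 rose (18.8%) in PBRT16 cells, where 19% of all tested genes were lower and 21.1% higher. In PBRT15 cells 7 fell (43.8%) and 3 rose (18.8%), against 19.5% lower and 21.6% higher over all tested genes, so the share that rose was close to that of all genes in both lines. POLR1G, a subunit specific to this polymerase, was at 290 and 231 in PBRT16 cells and at 349 and 222 in PBRT15 cells, against 663 and 724 in parental cells, with a log2 fold change of -1.42 in PBRT16 cells and -1.32 in PBRT15 cells. POLR1F and the initiation factor TAF1D also fell in both lines, by 0.68 each in PBRT16 cells and by 1.13 and 0.80 in PBRT15 cells, while TAF1C rose by 0.55 in PBRT16 cells and by 0.87 in PBRT15 cells. POLR2L, a small subunit common to the nuclear RNA polymerases, rose by 2.30 in PBRT16 cells and by 2.92 in PBRT15 cells on the log2 scale. POLR1B and POLR2L thus moved in opposite directions within 1 enzyme, as did POLR1G and POLR2E.

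Of the snoRNP core proteins, NOP58 binds box C/D RNAs, and DKC1, GAR1 and NHP2 form the box H/ACA particle, in which DKC1 (dyskerin) is the pseudouridine synthase. NOP58 fell by 0.47 in PBRT16 cells (adjusted p = 0.0423) and had a log2 fold change of -0.20 in PBRT15 cells (adjusted p = 0.262). DKC1 had one of -0.60 in PBRT16 cells (adjusted p = 0.0503, just outside the threshold) and fell by 0.63 in PBRT15 cells (adjusted p = 0.0433). GAR1 was not called in either line (log2 fold change -0.31 in PBRT16 cells and -0.14 in PBRT15 cells). NHP2, which joins DKC1 in that particle, was at 2109 and 1858 in PBRT16 cells and at 2028 and 1927 in PBRT15 cells, against 1413 and 1646 in parental cells. All 4 resistant libraries were above both parental libraries, but its log2 fold changes of 0.38 in PBRT16 cells (adjusted p = 0.0908) and 0.37 in PBRT15 cells (adjusted p = 0.0918) did not pass the test.

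The small subunit group held the 2 genes that separated the resistant lines. Of its 14 genes, 7 fell and 1 rose in PBRT16 cells (median log2 fold change -0.63), and 7 fell in PBRT15 cells (median -0.56). The falls were 50% of the 14 in each line, against 19% of all tested genes in PBRT16 cells and 19.5% in PBRT15 cells. The rise was 7.14% in PBRT16 cells, against 21.1% of all tested genes. NOP14, WDR3, RRP12, UTP20 and BYSL were called in each line, HEATR1 and TSR1 in PBRT16 cells, and WDR75 and DDX10 in PBRT15 cells. The log2 fold changes of TSR1, WDR75 and DDX10 were -0.55, -0.73 and -0.55 in PBRT16 cells. In PBRT15 cells they were -0.39, -0.92 and -0.79. None of these genes was called between PBRT16 and PBRT15 cells (adjusted p = 0.526, 0.609 and 0.466, limma). WDR3, a component of the early processome, was at 1374 and 1457 in PBRT16 cells and at 1853 and 1223 in PBRT15 cells, against 2535 and 3080 in parental cells. NOB1, the endonuclease of the last small subunit cut, and IMP4, which works with the U3 snoRNP, were not called in either line.

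UTP20 (chr12:101280105-101386618, plus strand), a very large scaffold protein of the processome, was at 1191 and 1273 in PBRT16 cells and at 2340 and 2037 in PBRT15 cells, against 3202 and 3213 in parental cells. The 3 groups did not overlap, with PBRT16 cells lowest. Its log2 fold change was -1.38 in PBRT16 cells (SE 0.13, adjusted p = 0.00178), -0.55 in PBRT15 cells (SE 0.13, adjusted p = 0.0244) and -0.83 between PBRT16 and PBRT15 cells (SE 0.13, adjusted p = 0.02).

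HEATR1 (chr1:236549005-236604516, minus strand), which links early processing to RNA polymerase I transcription, was at 1933 and 1833 in PBRT16 cells and at 3677 and 3125 in PBRT15 cells, against 4206 and 4259 in parental cells. The PBRT16 values again lay apart below the rest. The log2 fold change was -1.17 in PBRT16 cells (SE 0.13, adjusted p = 0.00313), -0.32 in PBRT15 cells (adjusted p = 0.112) and -0.85 between PBRT16 and PBRT15 cells (adjusted p = 0.0205).

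IMP3, a partner of the U3 snoRNP, was the only gene of the 42 that rose. Its signal was 555 and 715 in PBRT16 cells and 488 and 379 in PBRT15 cells, against 383 and 384 in parental cells. Both PBRT16 libraries were above both parental ones, and the PBRT15 libraries lay on either side. The log2 fold change was 0.72 in PBRT16 cells (adjusted p = 0.0406, called in 11 of 17 alternative fits, and not without either parental or either PBRT16 replicate) and 0.17 in PBRT15 cells (adjusted p = 0.529).

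Of 13 large subunit factors, 7 fell in PBRT16 cells (median log2 fold change -0.57) and 6 in PBRT15 cells (median -0.49). These were 53.8% and 46.2% of the 13, where 19% and 19.5% of all tested genes were lower. GNL3 (nucleostemin), a nucleolar GTPase known from stem and tumor cells, was at 3065 and 2883 in PBRT16 cells and at 2888 and 2248 in PBRT15 cells, against 5812 and 5415 in parental cells. No resistant library came near the parental values, and the log2 fold change was -0.92 in PBRT16 cells (SE 0.16, adjusted p = 0.0117) and -1.14 in PBRT15 cells (SE 0.16, adjusted p = 0.00617).

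WDR12, PES1 and BOP1 form the PeBoW complex of large subunit maturation, and of the 3 only WDR12 was called. It was at 1390 and 1374 in PBRT16 cells and at 1859 and 1147 in PBRT15 cells, against 2946 and 3142 in parental cells. Its log2 fold change was -1.14 in PBRT16 cells (SE 0.25, adjusted p = 0.0216) and -1.06 in PBRT15 cells (SE 0.25, adjusted p = 0.0264). BOP1 was at 2021 and 2017 in PBRT16 cells and at 2179 and 1919 in PBRT15 cells, against 1775 and 2100 in parental cells, values that overlap in both comparisons. The 95% interval of its log2 fold change ran from -0.30 to 0.43 in PBRT16 cells and from -0.29 to 0.45 in PBRT15 cells. PES1 was not called in either line, with log2 fold changes of -0.21 in PBRT16 cells and -0.32 in PBRT15 cells. The difference between WDR12 and its partners was not tested.

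RRP1B, DDX18, LAS1L (a subunit of the complex that cuts the internal spacer) and MRTO4 were called lower in each line, with falls of 0.45 to 0.66 on the log2 scale in PBRT16 cells and of 0.49 to 0.65 in PBRT15 cells. NOP2, an rRNA methyltransferase long used as a marker of proliferation, was at 2056 and 1833 in PBRT16 cells and at 3642 and 2528 in PBRT15 cells, against 3531 and 3606 in parental cells. Its log2 fold change was -0.88 in PBRT16 cells (adjusted p = 0.0264), -0.23 in PBRT15 cells (adjusted p = 0.402) and -0.64 between PBRT16 and PBRT15 cells (adjusted p = 0.103). PPAN, whose locus also gives read-through transcripts with P2RY11 and whose values are therefore uncertain, was at 422 and 597 in PBRT16 cells and at 469 and 342 in PBRT15 cells, against 302 and 427 in parental cells, and was not called. NOP16, NIP7 and WDR74, also assembly factors, had log2 fold changes of -0.62, -0.53 and -0.51 in PBRT16 cells and of -0.27, -0.40 and -0.62 in PBRT15 cells, none of them called.

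The multifunctional nucleolar proteins had negative log2 fold changes in both lines for all 5 genes. Of these, 3 fell in PBRT16 cells (60%) and 4 in PBRT15 cells (80%), where 19% and 19.5% of all tested genes were lower. NCL was at 36294 and 31660 in PBRT16 cells and at 38979 and 31049 in PBRT15 cells, against 52093 and 55296 in parental cells. It fell by 0.66 on the log2 scale in PBRT16 cells (adjusted p = 0.0306) and by 0.63 in PBRT15 cells (adjusted p = 0.0356). DDX21, an RNA helicase that couples RNA polymerase I transcription to processing, was at 6816 and 6218 in PBRT16 cells and at 6900 and 5094 in PBRT15 cells, against 11021 and 10571 in parental cells. NOLC1 was also called in each line, NPM1 in PBRT15 cells and MYBBP1A in neither. NPM1 has many processed pseudogenes, and how reads were shared with them is not known.

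Between PBRT16 and PBRT15 cells, 2 of the 42 genes were lower (UTP20 and HEATR1, above) and 0 were higher by limma, where 8.27% of all tested genes were lower and 7.51% higher. At an unadjusted p of at most 0.05, 3 were lower and 1 (IMP3) was higher. The median log2 fold change was -0.0033. The call of both genes was lost without PBRT16 replicate 1, PBRT16 replicate 2 or PBRT15 replicate 1, when 0 of the 42 genes were called.

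Genes near UTP20 and HEATR1 were looked at after their values were seen. Of the 52 other tested genes that start within 5 Mb of UTP20, 43 had a lower mean in PBRT16 cells than in PBRT15 cells, with a median log2 fold change of -0.39 (quartiles -0.77 and -0.18). Of the 34 near HEATR1, 27 did, with a median of -0.43 (quartiles -0.74 and -0.10). Over all tested genes, 49.7% had a negative log2 fold change in this comparison. For NOP2, also on chromosome 12, the median of 123 neighbors was -0.46. Near GAR1, a gene not called, the median was -0.30, with 29 of 38 neighbors lower. Over all 16108 such windows with at least 20 neighbors, the lowest 5% of medians lay below -0.51 and the highest 5% above 0.21. The middle value of these medians was 0.03.

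Among the 93 other ribosome biogenesis genes, 3 were lower in PBRT16 than in PBRT15 cells (3.23%), fewer than the 8.27% of all tested genes. They were KRR1 and DDX51 on chromosome 12 and NVL on chromosome 1, whose neighbors had medians of -0.36, -0.42 and -0.39. The values of UTP20, HEATR1 and NOP2 themselves (-0.83, -0.85 and -0.64) were below the medians of their neighbors. Against parental cells, the UTP20 neighbors had a median of 0.11 in PBRT16 cells and 0.51 in PBRT15 cells, while UTP20 itself was lower in both. The part of the neighborhood in these differences was not tested.

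**Figure D2:**
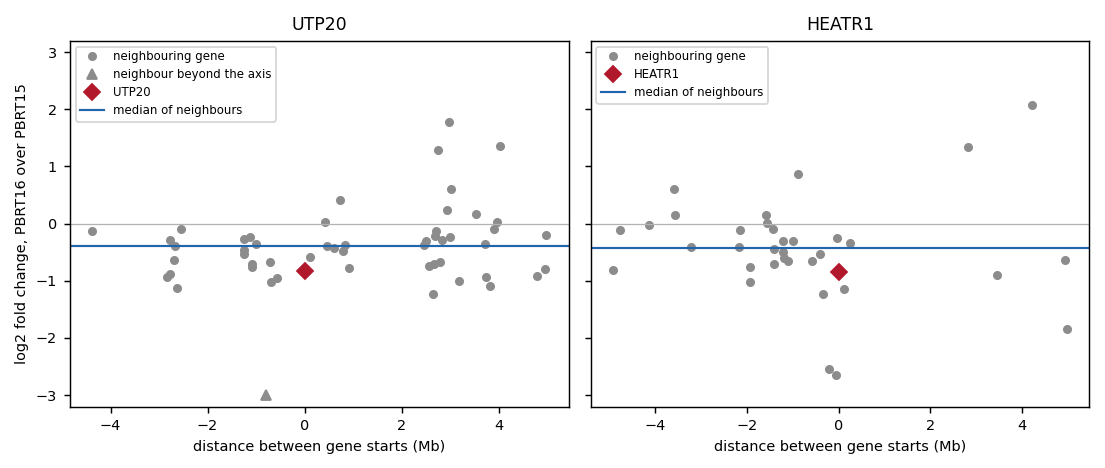
Log2 fold change of PBRT16 over PBRT15 cells for tested genes within 5 Mb of UTP20 (left) and HEATR1 (right), against the distance between gene starts. The blue line marks the neighbors' median, at -0.39 for UTP20 and -0.43 for HEATR1, and the red diamond the gene itself, at -0.83 for UTP20 and -0.85 for HEATR1.

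The 93 other ribosome biogenesis genes also fell more often than they rose. In PBRT16 cells 38 fell and 4 rose (median log2 fold change -0.46), and in PBRT15 cells 29 fell and 9 rose (median -0.32). The falls were 40.9% of the 93 in PBRT16 cells and 31.2% in PBRT15 cells, against 19% and 19.5% of all tested genes. The rises were 4.3% and 9.68%, against 21.1% and 21.6%. UTP25, a processome factor, was at 352 and 343 in PBRT16 cells and at 484 and 433 in PBRT15 cells, against 825 and 1018 in parental cells. RCL1, which acts in cutting of the precursor, fell by 1.10 in PBRT16 cells and by 1.25 in PBRT15 cells on the log2 scale. KRR1 fell by 1.08 in PBRT16 cells and NIFK by 0.97 in PBRT15 cells. TSR3, which modifies small subunit rRNA, rose by 1.24 in PBRT16 cells and by 1.39 in PBRT15 cells, and the helicase DDX49 by 0.90 in PBRT16 cells. DDX47 rose by 0.56 in PBRT16 cells, and NOC4L (by 1.09) and TBL3 rose in PBRT15 cells.

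**Figure D3:**
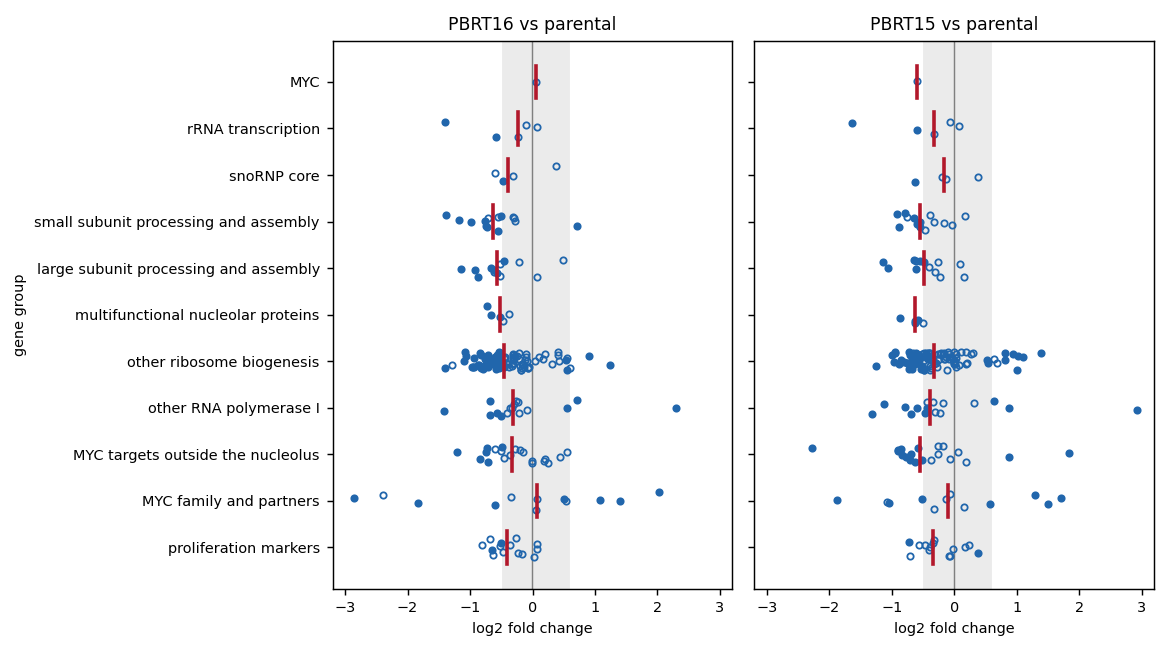
Log2 fold change over parental cells in PBRT16 (left) and PBRT15 (right) cells for the 42 genes by role and for related gene groups. Filled points passed an adjusted p of 0.05, red bars are group medians, and the gray band and line show the quartiles and median of all 16560 tested genes; red bars of the ribosome groups lie left of the gray line in both panels.

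Of 12 relatives and partners of MYC, 3 fell (25%) and 4 rose (33.3%) in PBRT16 cells, where 19% of all tested genes were lower and 21.1% higher. Likewise 3 fell and 4 rose in PBRT15 cells, against 19.5% lower and 21.6% higher over all tested genes. The counts of the 12 genes include MYCN among the falls, which passed the filter only through the parental libraries, so its call is no independent evidence. MYCN and MYCL, which can stand in for MYC, were low throughout. MYCN was at 1.88 and 2.94 in PBRT16 cells and at 6.37 and 5.01 in PBRT15 cells, against 36.3 and 14.9 in parental cells. MYCL fell by 1.83 in PBRT16 cells and by 1.05 in PBRT15 cells on the log2 scale. MAX was not called, with log2 fold changes of 0.08 in PBRT16 cells and -0.13 in PBRT15 cells.

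The MXD proteins compete with MYC for MAX and are known repressors of E-box genes. MXD4 was at 984 and 877 in PBRT16 cells and at 593 and 952 in PBRT15 cells, against 207 and 252 in parental cells. All resistant libraries were above both parental ones, with a log2 fold change of 2.02 in PBRT16 cells (SE 0.26, adjusted p = 0.00487) and 1.71 in PBRT15 cells (SE 0.26, adjusted p = 0.00779). MXD3 also rose in both lines (by 1.40 in PBRT16 cells), and MXD1 by 0.51 in PBRT16 cells and by 0.56 in PBRT15 cells on the log2 scale. MLXIP, which pairs with MLX, also rose in both lines, and MLX fell by 0.60 in PBRT16 cells.

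MXI1 and MNT, also MAX partners, separated the resistant lines. MXI1 was at 389 and 700 in PBRT16 cells, against 148 and 197 in PBRT15 cells (log2 fold change 1.61, adjusted p = 0.0365), with parental cells between at 377 and 346. Both PBRT15 libraries of MXI1 were thus below both parental ones, while those of MXD1, MXD3 and MXD4 were above them. MNT was at 630 and 670 in PBRT16 cells, against 421 and 455 in PBRT15 cells (log2 fold change 0.57, adjusted p = 0.0467). Whether the MXD changes have a part in those of the nucleolar genes was not tested.

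**Figure D4:**
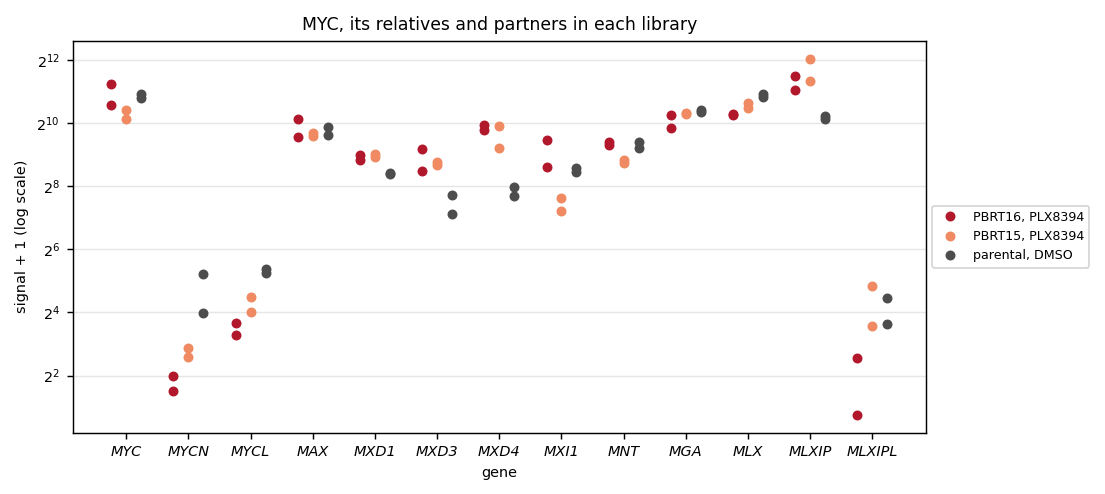
Signal + 1 of MYC, its relatives and its partners in each library on a log axis, PBRT16 in dark red, PBRT15 in orange and parental cells in gray. For MYC, the PBRT15 points lie below all others and the PBRT16 points on either side of the parental ones. MXD1, MXD3, MXD4 and MLXIP are higher and MYCN and MYCL lower in all resistant libraries than in both parental libraries.

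Among 20 known MYC targets outside the nucleolus, 6 fell and 0 rose in PBRT16 cells by limma (2 rose at an unadjusted p of at most 0.05), and 11 fell and 2 rose in PBRT15 cells. The falls were 30% of the 20 in PBRT16 cells and 55% in PBRT15 cells, against 19% and 19.5% of all tested genes. Over all tested genes 21.1% and 21.6% rose. The median log2 fold change of the 20 was -0.33 in PBRT16 cells and -0.55 in PBRT15 cells. ODC1, the first enzyme of polyamine synthesis, was at 1720 and 1642 in PBRT16 cells and at 2312 and 1985 in PBRT15 cells, against 3210 and 4701 in parental cells. PPAT, which starts purine synthesis, and the mitochondrial chaperone HSPD1 fell by 0.84 and 0.74 in PBRT16 cells. SLC7A5, an amino acid transporter, was at 9574 and 7356 in PBRT16 cells, against 1349 and 1569 in PBRT15 cells, with a log2 fold change of 2.53 between them (adjusted p = 0.00343). FASN, the fatty acid synthase, rose by 1.83 in PBRT15 cells against parental cells on the log2 scale, as did CDK4 by 0.88, while SLC7A5, LDHA and GART fell by 2.28, 0.90 and 0.90. Between PBRT16 and PBRT15 cells, LDHA was also higher (log2 fold change 1.09) and FASN and SHMT2 were lower (-1.63 and -0.67).

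Of 14 proliferation markers, 2 fell and 0 rose in PBRT16 cells (0 rose at an unadjusted p of at most 0.05), and 1 fell and 1 rose in PBRT15 cells by limma. The shares that fell (14.3% in PBRT16 cells and 7.14% in PBRT15 cells) were below the 19% and 19.5% of all tested genes. Still, 11 of the 14 markers had a negative and 3 a positive log2 fold change in each line. Their median was -0.41 in PBRT16 cells (all tested genes -0.0019) and -0.34 in PBRT15 cells (all tested genes -0.0053). MCM3 and MCM7, subunits of the replicative helicase, fell by 0.50 and 0.64 in PBRT16 cells. MCM3 fell by 0.72 and PCNA, the replication clamp, rose by 0.38 in PBRT15 cells. Their summed signal was 100565 and 80754 in PBRT16 cells and 110540 and 89861 in PBRT15 cells, against 117492 and 119150 in parental cells. The sum was below both parental libraries in each resistant library, as was that of the 42 genes, and its part in their falls was not tested. In PBRT15 cells 40 of the 42 genes were lower in replicate 2 than in replicate 1, with a median difference of -0.28 on the log2 scale, and 10 of the 14 proliferation markers were lower too. In PBRT16 cells 28 of the 42 genes and 7 of the 14 markers were lower, and in parental cells 3 and 5. Over all tested genes, 48.7% were lower in replicate 2 in PBRT15 cells, 48.4% in PBRT16 cells and 49.2% in parental cells.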

How the data were processed

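RNA-seq values of 6 libraries were used, 2 per group, grouped by the labels. Per the labels, libraries were strand specific and paired-end. The deposited values are a normalized signal per gene that the authors made from RSEM's estimated counts, not whole counts. The submitters' processing notes name STAR 2.6.1a, RSEM, Picard, DESeq2 and GRCh38, and how they were normalized is not stated in what was read, so shifts of single genes cannot be undone. The most frequent low value per library served as the worth of 1 read for the estimated depth. Since no single step per library turned the values back into whole reads, no count-based test was run.

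The members and lists were chosen with earlier results of these data known. IDs were matched to GENCODE v44 without version (60357 of 60617), and 45 pseudoautosomal Y copies were dropped. The filter kept genes that reached 10 or more (adjusted for library totals) in 2 or more libraries with a sum of 15 or more. R 4.3.3 with limma 3.58.1 fitted log2(signal + 1) for 3 groups over 6 libraries, with no further scaling, with 3 residual and 1.89 prior degrees of freedom. Fold changes on this scale understate those of low genes. P-values were two-sided and adjusted by Benjamini-Hochberg over 16560 genes, and 0.05 was the largest adjusted p called. The steps were tested on simulated data.

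Named in full were MYC, the 3 genes with the lowest and the 3 with the highest fold change per comparison, and those called between the lines; of other lists, the 3 largest called falls and rises per comparison. Other genes with values in every library (BOP1, NCL, DDX21 and WDR3), MAX, COL1A2 and THY1 were chosen after their values were seen. Alternatives were median-of-ratios, upper-quartile and total scaling, pseudocounts of 0.5 and 5, no filter, a stricter filter, a prior spread that follows expression, protein-coding genes, a replicate block, 4 libraries per fit, a fold of at least 2 and leaving out each library. Levels per kilobase used the longest GENCODE v44 transcript.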

Additional observations from a re-analysis of the deposited data

Results flagged for a closer look

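UTP20 and HEATR1 were called lower in PBRT16 than in PBRT15 cells. They made up 4.76% of the 42 genes, where 8.27% of all tested genes were called lower. Of the genes within 5 Mb, 43 of 52 near UTP20 and 27 of 34 near HEATR1 also had a lower mean in PBRT16 cells. Over all tested genes, 49.7% had a negative log2 fold change in this comparison. The part of the neighborhood was not tested. The difference between the log2 fold changes over parental cells in PBRT16 and in PBRT15 cells, which is the PBRT16 to PBRT15 contrast itself, was -0.83 for UTP20 (adjusted p = 0.02, limma) and -0.85 for HEATR1 (adjusted p = 0.0205, limma), lower in both PBRT16 libraries than in both PBRT15 libraries for each gene. Both calls held in 13 of 17 alternative fits (adjusted p 0.00184 to 0.0964 for UTP20 and 0.00171 to 0.0977 for HEATR1).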

How the results depend on the processing

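No called result changed sign. Among the 42 genes, the sign of the log2 fold change was the same in all 17 alternatives for 38 in PBRT16 cells and 34 in PBRT15 cells; the others, MYC in PBRT16 cells (-0.28 to 0.38) and NOP2 (-0.50 to 0.03), IMP3 (-0.02 to 0.35) and PPAN (-0.09 to 0.41) in PBRT15 cells among them, were not called there. In PBRT16 cells the count of falls (20) was 4 without a filter, 12 with a replicate block and 4 at a fold of at least 2, and 3 to 24 without single libraries. The count of rises (1) was 0 without a filter, with a replicate block and at a fold of at least 2, 2 with a spread by expression level, and 0 to 1 without single libraries. In PBRT15 cells the count of falls (20) was 2 without a filter, 12 with 4 libraries in the fit, 3 at a fold of at least 2 and 14 with a replicate block, and 2 to 17 without single libraries. The count of rises (0) was 1 with a spread by expression level. Between PBRT16 and PBRT15 cells the count of falls (2) was 0 without a filter and at a fold of at least 2, 3 with a spread by expression level, 2 with a replicate block, and 0 to 2 without single libraries, 0 without PBRT15 replicate 1, PBRT16 replicate 1 or PBRT16 replicate 2. The other scalings, pseudocounts and filters gave 19 to 24 falls in PBRT16 cells and 17 to 23 in PBRT15 cells.

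Fits without a filter tested 29717 genes, most of the added ones at low values, and fits without a library had fewer samples for the spread. Over all tested genes, replicate numbers showed little pairing of the samples. Deviations of same-numbered libraries correlated at 0.039 (PBRT16 and parental), 0.018 (PBRT15 and parental) and 0.14 (PBRT16 and PBRT15). Of the 42 genes, however, 28 in PBRT16 cells and 40 in PBRT15 cells were lower in replicate 2, against 3 in parental cells. Whether same-numbered libraries of the resistant lines were handled together is not known. With 2 libraries per group, missing the threshold does not make a gene stable. Upper-quartile scaling moved the median of all genes to -0.03 in PBRT16 cells and -0.09 in PBRT15 cells.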

Other observations

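Per kilobase of the longest transcript, the levels of the 42 genes ran over a wide range in every group. NCL was at 8019 signal units per kilobase in PBRT16 cells and 8264 in PBRT15 cells, against 12673 in parental cells, and NPM1 at 8075 in PBRT16 cells and 7011 in PBRT15 cells, against 10423 in parental cells. DDX10 had the lowest level in each group, at 105 in PBRT16 cells and 90.3 in PBRT15 cells, against 154 in parental cells. PPAN was close to it in parental cells, at 158, and such ranks depend on the transcript length used. MYC ranked 21 of 42 in PBRT16 cells and 24 of 42 in PBRT15 cells and in parental cells. POLR1B ranked 41 in both resistant lines, against 34 in parental cells, and NHP2 ranked 3 in both resistant lines, against 6 in parental cells.

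Replicates of a group differed in a shared direction. Of the 42 genes, 28 were lower in replicate 2 than in replicate 1 in PBRT16 cells and 40 in PBRT15 cells, against 3 in parental cells. Over all tested genes, 48.4 to 49.2% were lower in replicate 2 in each group. The 93 other ribosome biogenesis genes showed the same pattern, with 64 lower in replicate 2 in PBRT16 cells and 83 in PBRT15 cells, against 23 in parental cells.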
